A study of Rattus norvegicus with 29 samples.

Results

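The genes described here mark Kupffer cells, the resident macrophages of the liver, and the wider myeloid lineage. They were chosen by name: 33 genes were listed, and a gene was taken when a transcript cluster of the array carried its symbol and no other. In all, 31 of the 33 genes were found among 27342 clusters, of which 15097 carried a single symbol, and each of the 31 was measured by 1 cluster. They comprised 9 of 10 resident Kupffer cell markers and 22 of 23 general myeloid genes. No cluster carried Timd4 or Msr1 as its only symbol, so those genes are not described.

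Liver RNA came from male Sprague-Dawley rats, aged 6 to 7 weeks per the labels, that were gavaged once a day with PMCol (pentamethylchromanol, a relative of vitamin E without its long tail) or with vehicle, methyl cellulose in water. Livers were taken on day 8 after 7 daily doses or on day 29 after 28 daily doses. The age is given alike for both days. Day 8 had 6 livers with 2000 mg/kg and 6 with vehicle, and day 29 had 6 with vehicle, 6 with 200 mg/kg and 5 with 2000 mg/kg. The left lobe of every liver was run on its own array, the labels name the arrays of a group as biological replicates, and precision is limited by how many arrays a group has. Values are deposited log2 signals, given relative to each cluster's median over the 29 arrays, so a value of 0 is the middle array for that gene. The centred values do not give how strongly a gene was expressed, nor whether the Kupffer cell markers stood above background. Their rounding shows stored values of 8 or more for Clec4f, C1qa, C1qc, Csf1r, Ctss, Cd14, Mrc1 and Mpeg1, but not throughout for the other genes. Array medians lay between -0.023 and 0.0287, and the array of vehicle animal 1 at day 29 had the widest spread over all clusters, with an SD of 0.287.

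Kupffer cells line the liver sinusoids and clear particles, complement-coated material and aged red cells from portal blood. They depend on signals through the Csf1 receptor and on the transcription factor PU.1, and in the mouse the lectin Clec4f and the complement receptor Vsig4 set them apart from macrophages that newly arise from blood monocytes. The general myeloid genes are shared with monocytes, other macrophages and, for some, lymphocytes or granulocytes.

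The main pattern lay at day 8. With 2000 mg/kg PMCol, 26 of the 31 genes fell, 1 rose (Cd14) and 4 did not pass the test (Ccr2, Itgam, Lyz2 and Slc11a1), against the vehicle animals of the same day. Over all clusters 9.32% fell and 9.32% rose in that comparison (limma, Benjamini-Hochberg adjusted p under 0.05). All 9 resident markers fell, with a median log2 difference of -1.08, and 17 of the 22 general genes fell, with a median over the 22 of -0.71. The median over all clusters was -0.0049. These falls are relative to the vehicle livers of day 8, whose mean was the highest of the 5 groups in 28 of the 31 genes. The treated mean of day 8 lay within the range of the vehicle livers of day 29 in 25 of the 31. That range was widened by vehicle animal 2 of day 29, which stood far above the other livers of its group in 13 genes. In Vsig4 the treated mean, 0.02, lay above the next highest of those livers, at -0.52, and in C1qa, at -0.17, below it, at -0.08. Shares over all clusters were not computed for these 2 counts. Whether the treated livers were low or the vehicle livers of day 8 high was not tested. In bulk liver RNA, the number of macrophages and the amount of these transcripts per macrophage cannot be told apart. In 19 of the 31 genes every treated animal lay below every vehicle animal, against 5.19% of all clusters. The number called was between 22 and 27 when each animal of the 2 groups was left out in turn, and 21 of the 27 calls held in every such fit. The others were those of Vsig4, Cd5l, Cd163, Mrc1, Ctss and Cx3cr1.

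**Figure D1:**
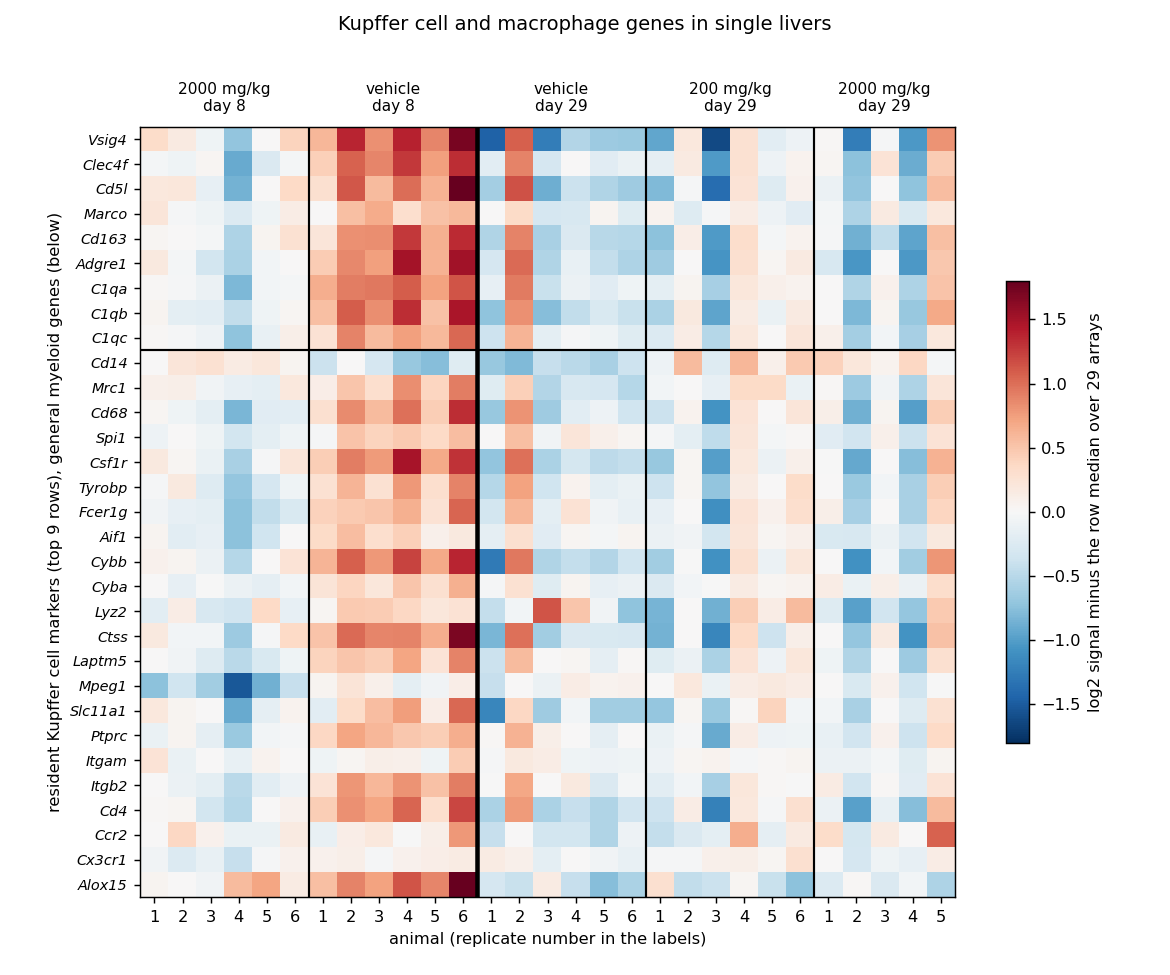
Each row is a gene and each column 1 liver, coloured by log2 signal minus the median of that row over 29 arrays (blue below, red above). The 9 resident markers fill the top rows. The vehicle animals of day 8 form the reddest block, and single animals of day 29, such as vehicle animal 2 (high) and 200 mg/kg animal 3 (low), deviate through most rows at once.

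Among the resident markers, Clec4f, the C-type lectin that marks rodent Kupffer cells, had the largest fall. Its values were -0.91, -0.06 and 0.04 (lowest, median, highest) in the 6 treated livers of day 8, against 0.43, 0.97 and 1.33 in the 6 vehicle livers. The groups did not overlap. Clec4f was 2.24-fold lower with PMCol (log2 difference -1.16 ± 0.24 SE, limma adjusted p = 0.000742). Vsig4, the receptor that lets Kupffer cells take up particles coated with complement fragments, had -0.70, 0.08 and 0.40 with PMCol, against 0.60, 1.12 and 1.71 with vehicle. These groups did not overlap either, but Vsig4 varied more between animals, and its fall of -1.11 ± 0.37 had an adjusted p of 0.0341 (limma). That call was lost in 6 of the 12 fits that left out 1 animal of day 8, with adjusted p up to 0.0907.

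The C1q chains, which together form the recognition molecule that starts the classical complement pathway and are made in liver by macrophages, fell together. C1qa had -0.81, -0.04 and 0.02 with PMCol, against 0.65, 0.94 and 1.13 with vehicle, a difference of -1.08 ± 0.19 (limma adjusted p = 0.000147). For C1qb the difference was -1.10 ± 0.25 and for C1qc -0.82 ± 0.17. None of the 3 chains had overlapping groups at day 8. C1qa, C1qc and C1qb are neighbouring genes in the RefSeq gene table (assembly GRCr8).

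The other resident markers had log2 differences between -1.08 and -0.45. Adgre1, an adhesion receptor long used as a macrophage marker, fell by 1.08, and its groups did not overlap (limma adjusted p = 0.00557). Cd163, the scavenger receptor for haemoglobin bound to haptoglobin, fell by 0.90, and Cd5l, a secreted protein of tissue macrophages, fell by 0.94. Marco, a scavenger receptor for bacteria and particles, fell by 0.45. In Cd163, Cd5l and Marco the groups overlapped. On leaving out 1 animal, the call of Cd5l was lost in 6 of 12 fits (limma adjusted p up to 0.102). That of Cd163 was lost in 1 of 12 (limma adjusted p up to 0.0502).

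The general myeloid genes were ordered by role. Csf1r, the receptor for the growth factors Csf1 and Il34 that macrophages need to survive, had -0.59, 0.01 and 0.21 with PMCol at day 8, against 0.44, 0.84 and 1.48 with vehicle. The groups did not overlap, and Csf1r fell by 0.98 ± 0.27 (limma adjusted p = 0.00917). Spi1, the gene of PU.1, fell by 0.51 ± 0.12 (limma adjusted p = 0.0021). The range of Spi1 was -0.33 to 0 with PMCol and -0.01 to 0.55 with vehicle, where vehicle animal 1 alone reached into the treated range.

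Because genes of this lineage moved together, their promoters were searched for letters that PU.1 and its partners are known to bind. PU.1 recognises GAGGAA, and PU.1 with an interferon regulatory factor recognises a joined element, GGAA and GAAA with 2 bases of any kind between them. RefSeq promoters of 300 bases (250 before to 50 after the gene's start, build GRCr8) were at hand for 22 of the 31 genes. On either strand, GAGGAA stood in 14 of the 22 (63.6%), against 27.6% of 33469 promoters. GGAAGT, an ETS-type core, stood in 10 (45.5%), against 22.6%, and TGCTGA, part of the site of Maf factors, in 6 (27.3%), against 18.4%. The longer GAGGAAGT, which overlaps both GAGGAA and GGAAGT, stood in 1 (Ctss), against 2.42%. The joined element stood in 3 (13.6%), against 2.94%. These 5 motifs were chosen after the values were seen, and a match of letters is not a bound site. The 3 promoters with the joined element belong to Cd68, Cybb and Marco and are shown because they carry it, with every match of the joined element and of GAGGAA in capitals. They lie at chr10:54882392-54882691, chrX:16065016-16065315 and chr13:34201206-34201505, all on the minus strand and written 5′ to 3′ along the gene, from RefSeq.
Cd68: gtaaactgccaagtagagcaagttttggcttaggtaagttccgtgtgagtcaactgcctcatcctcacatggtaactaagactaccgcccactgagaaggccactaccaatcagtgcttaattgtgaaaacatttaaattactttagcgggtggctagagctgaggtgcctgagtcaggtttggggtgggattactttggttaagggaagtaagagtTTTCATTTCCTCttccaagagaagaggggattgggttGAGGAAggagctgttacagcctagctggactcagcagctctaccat
Cybb: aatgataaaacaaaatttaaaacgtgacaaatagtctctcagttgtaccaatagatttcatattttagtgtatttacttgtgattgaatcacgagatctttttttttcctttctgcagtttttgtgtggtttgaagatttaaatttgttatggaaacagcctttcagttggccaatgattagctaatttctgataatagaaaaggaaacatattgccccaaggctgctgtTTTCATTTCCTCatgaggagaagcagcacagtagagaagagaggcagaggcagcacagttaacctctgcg
Marco: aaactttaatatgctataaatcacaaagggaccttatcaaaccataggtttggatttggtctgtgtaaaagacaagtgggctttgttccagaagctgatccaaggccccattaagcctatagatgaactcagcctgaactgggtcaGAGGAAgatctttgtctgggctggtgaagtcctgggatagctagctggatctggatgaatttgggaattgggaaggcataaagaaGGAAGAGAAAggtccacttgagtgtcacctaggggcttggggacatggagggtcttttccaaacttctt
In Cd68 and Cybb the element reads on the strand opposite the gene, overlaps a GAGGAA match there, and is the same run of letters in both promoters. In Marco it reads along the gene. All 3 genes fell at day 8, as did 26 of the 31 genes. GAGGAA also stood in Cd14, which rose, and in Itgam and Lyz2, which did not pass the test. Whether these letters bear on the changes was not tested.

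Cd68, a glycoprotein of macrophage lysosomes, was -0.82, -0.18 and 0.03 with PMCol, against 0.29, 0.71 and 1.34 with vehicle, and fell by 0.98 ± 0.26 without overlap (limma adjusted p = 0.00704). Cybb, the catalytic subunit of the phagocyte oxidase that makes superoxide, was -0.52, 0.02 and 0.25 with PMCol, against 0.61, 0.93 and 1.37 with vehicle, and fell by 1.00 ± 0.29 (limma adjusted p = 0.014). Its membrane partner Cyba fell by 0.45 ± 0.09 (limma adjusted p = 0.000265), a smaller change measured with less spread between animals. The groups did not overlap in either subunit.

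The signalling adaptors Tyrobp and Fcer1g, which couple activating receptors to the kinase Syk, fell by 0.71 and 0.86, and the actin-binding protein Aif1 (Iba1) fell by 0.55. Among lysosomal and killing proteins, the protease Ctss fell by 0.98, the lysosomal membrane protein Laptm5 by 0.72 and the pore-forming Mpeg1 by 0.80. Lyz2, macrophage lysozyme, differed by -0.38 ± 0.27 and Slc11a1, the phagosomal metal transporter, by -0.56 ± 0.24, neither past the threshold (limma adjusted p = 0.384 and 0.107). Of the leukocyte surface genes, the integrin chain Itgb2 fell by 0.82, the phosphatase Ptprc (CD45) by 0.70 and Cd4, which rat macrophages also carry, by 0.87. Itgam, the integrin chain that pairs with Itgb2 and is typical of monocytes and neutrophils, differed by only -0.08 ± 0.07 (limma adjusted p = 0.545). The mannose receptor Mrc1 fell by 0.51, and Alox15, a lipoxygenase of macrophages, by 0.77.

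The chemokine receptors of monocytes differed little. Cx3cr1 fell by 0.22 ± 0.07 (limma adjusted p = 0.0401), a call lost in 8 of 12 fits without 1 animal, with adjusted p up to 0.132. Ccr2, which draws monocytes from the marrow, differed by -0.11 ± 0.18 (limma adjusted p = 0.75). Of 13 neutrophil and monocyte genes outside the list, 1 fell (the integrin Itgal, -0.58) and none rose, with a median difference of -0.02, where 9.32% of all clusters fell.

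**Figure D2:**
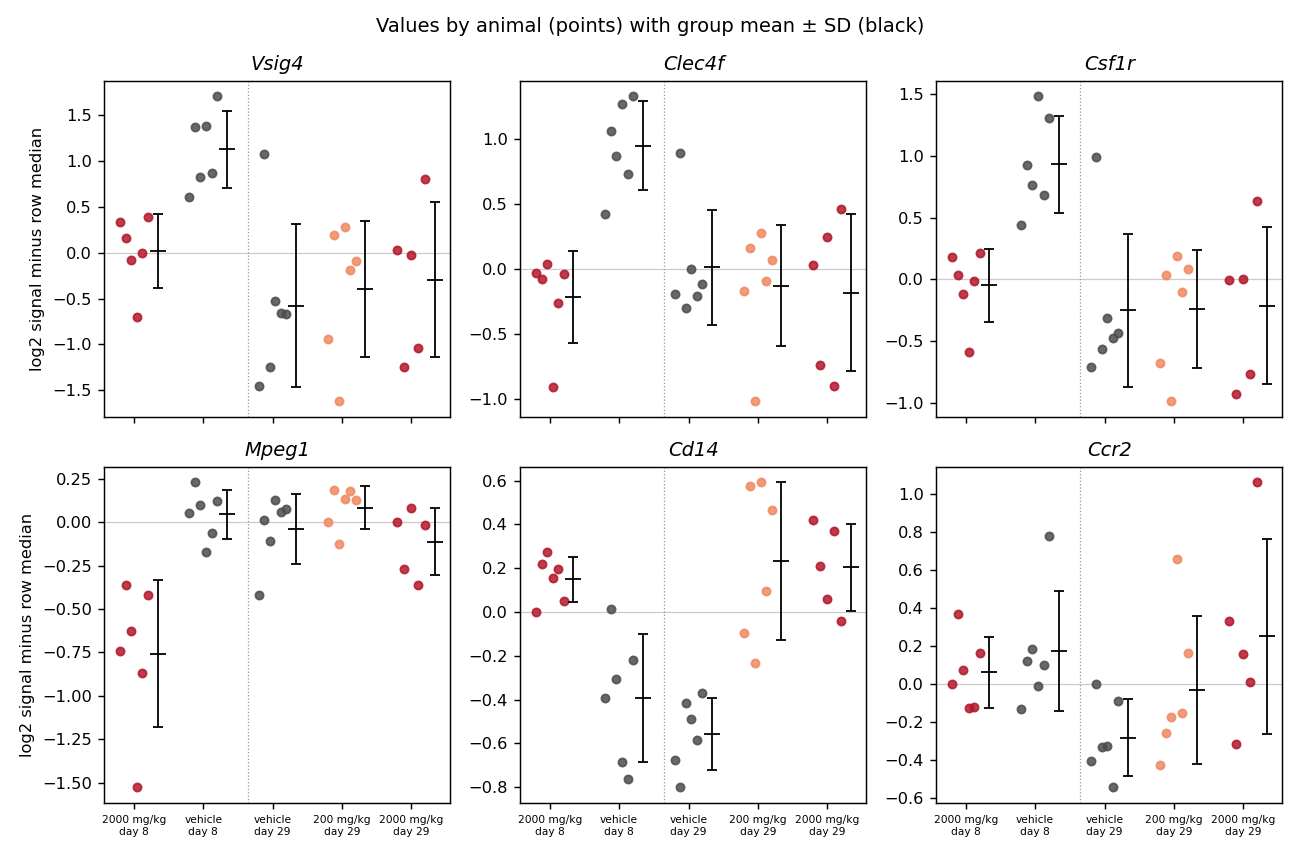
Log2 signal minus the row median (vertical axis) in each of 29 livers for 6 genes, with the group mean ± SD in black beside the points. Vsig4, Clec4f and Csf1r are highest in the vehicle animals of day 8, with vehicle animal 2 of day 29 among them, Mpeg1 is low in the 6 treated animals of day 8, Cd14 has a lower mean in both vehicle groups than in the treated groups, and Ccr2 spreads widely with PMCol at day 29.

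Cd14, the co-receptor for bacterial lipopolysaccharide, moved against the rest. At day 8 its values were 0, 0.18 and 0.27 with PMCol, against -0.76, -0.35 and 0.01 with vehicle, with overlap through 1 vehicle animal. It rose by 0.54 ± 0.13, or 1.45-fold (limma adjusted p = 0.00379). At day 29 Cd14 had -0.80, -0.54 and -0.37 with vehicle, -0.23, 0.28 and 0.59 with 200 mg/kg, and -0.04, 0.06, 0.21, 0.37 and 0.42 in the 5 livers with 2000 mg/kg. Neither treated group overlapped the vehicle group, as was so for 0.83% of all clusters in the upward direction at 200 mg/kg and 6.43% at 2000 mg/kg. Cd14 rose by 0.79 ± 0.13 at 200 mg/kg (limma adjusted p = 0.000744) and by 0.76 ± 0.14 at 2000 mg/kg (limma adjusted p = 0.000163). Both comparisons share the same vehicle animals, and the doses differed by -0.03 ± 0.14 (2000 minus 200 mg/kg, limma adjusted p = 0.934). Cd14 also is expressed by cells other than macrophages in the liver, and which cells carried the change was not tested.

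At day 29 few of the genes passed the test with PMCol. With 2000 mg/kg, 2 of 31 genes rose (Cd14 and Ccr2) and 0 fell, whereas 12.1% of all clusters rose and 9.55% fell (limma). At unadjusted p under 0.05, 2 rose and 1 fell. The median difference was -0.06 over the 31 genes and -0.09 over the 9 resident markers. With 200 mg/kg, 1 rose (Cd14) and 0 fell, against 1.37% and 1.42% of all clusters, and at unadjusted p under 0.05 the count was again 1. Between 2000 and 200 mg/kg 0 of 31 passed, at unadjusted p under 0.05 also 0, while 9.89% of all clusters passed. These counts do not show equality: the 95% intervals of the 31 differences for 2000 mg/kg reached from -0.99 to 1.08 on the log2 scale.

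The single livers of day 29 spread widely. Clec4f had -0.30, -0.16 and 0.89 with vehicle, -1.02, -0.01 and 0.28 with 200 mg/kg, and -0.90, -0.74, 0.03, 0.24 and 0.46 with 2000 mg/kg. Vsig4 had -1.45, -0.66 and 1.08 with vehicle, -1.62, -0.14 and 0.28 with 200 mg/kg, and -1.24, -1.04, -0.02, 0.03 and 0.81 with 2000 mg/kg. All 3 groups overlapped in both genes, and the spread within each was larger than the differences between group means.

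Ccr2 was the only other gene called at day 29. It had -0.55, -0.33 and 0 with vehicle, -0.43, -0.17 and 0.66 with 200 mg/kg, and -0.31, 0.01, 0.16, 0.33 and 1.06 with 2000 mg/kg. The groups overlapped. Ccr2 rose by 0.54 ± 0.19 at 2000 mg/kg (limma adjusted p = 0.0437), which was lost in 7 of 11 fits without 1 animal, and without the animal at 1.06 the adjusted p was 0.211.

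The vehicle groups themselves differed. In vehicle livers of day 29 against vehicle livers of day 8, all 31 differences were negative, 19 genes fell and 0 rose, where 1.77% of all clusters fell and 0.962% rose (limma). At unadjusted p under 0.05, 26 fell and 0 rose. The 9 resident markers all fell, with a median of -1.11, and 10 of the 22 general genes fell, with a median over the 22 of -0.52. The vehicle groups differed in the day of death and in the number of vehicle doses, and may have differed in age at death. An age of 6 to 7 weeks is given alike for both days. Day, doses, age and any difference in sample processing cannot be told apart. Because this comparison and that of PMCol at day 8 share the 6 vehicle livers of day 8, the genes that fell in both are not independent results.

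Vsig4 fell by 1.70 ± 0.37 between the vehicle groups (limma adjusted p = 0.0152), with -1.45, -0.66 and 1.08 at day 29 against 0.60, 1.12 and 1.71 at day 8. Csf1r fell by 1.18 ± 0.27, with -0.71, -0.45 and 0.99 at day 29 against 0.44, 0.84 and 1.48 at day 8. In both, 5 of the 6 later livers lay below all earlier ones and animal 2 lay among them. Alox15 was the only member without overlap, with -0.76, -0.40 and 0.15 at day 29 against 0.54, 0.89 and 1.84 at day 8, and it fell by 1.38 ± 0.19 (limma adjusted p = 0.000259). Over all clusters 0.706% lay lower without overlap.

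The count of 19 changed with the animals left out, which also made a group smaller, and with the estimate of spread. It was 8 without vehicle animal 2, 4 or 6 of day 8, or without vehicle animal 5 or 6 of day 29. It was 9 without vehicle animal 1 or 3 of day 29, 12 without animal 4 and 24 without animal 2, and 7 of the 19 calls held in every such fit. Fitted on the 12 vehicle animals alone, 3 genes passed (Alox15, C1qa and C1qb).

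**Figure D3:**
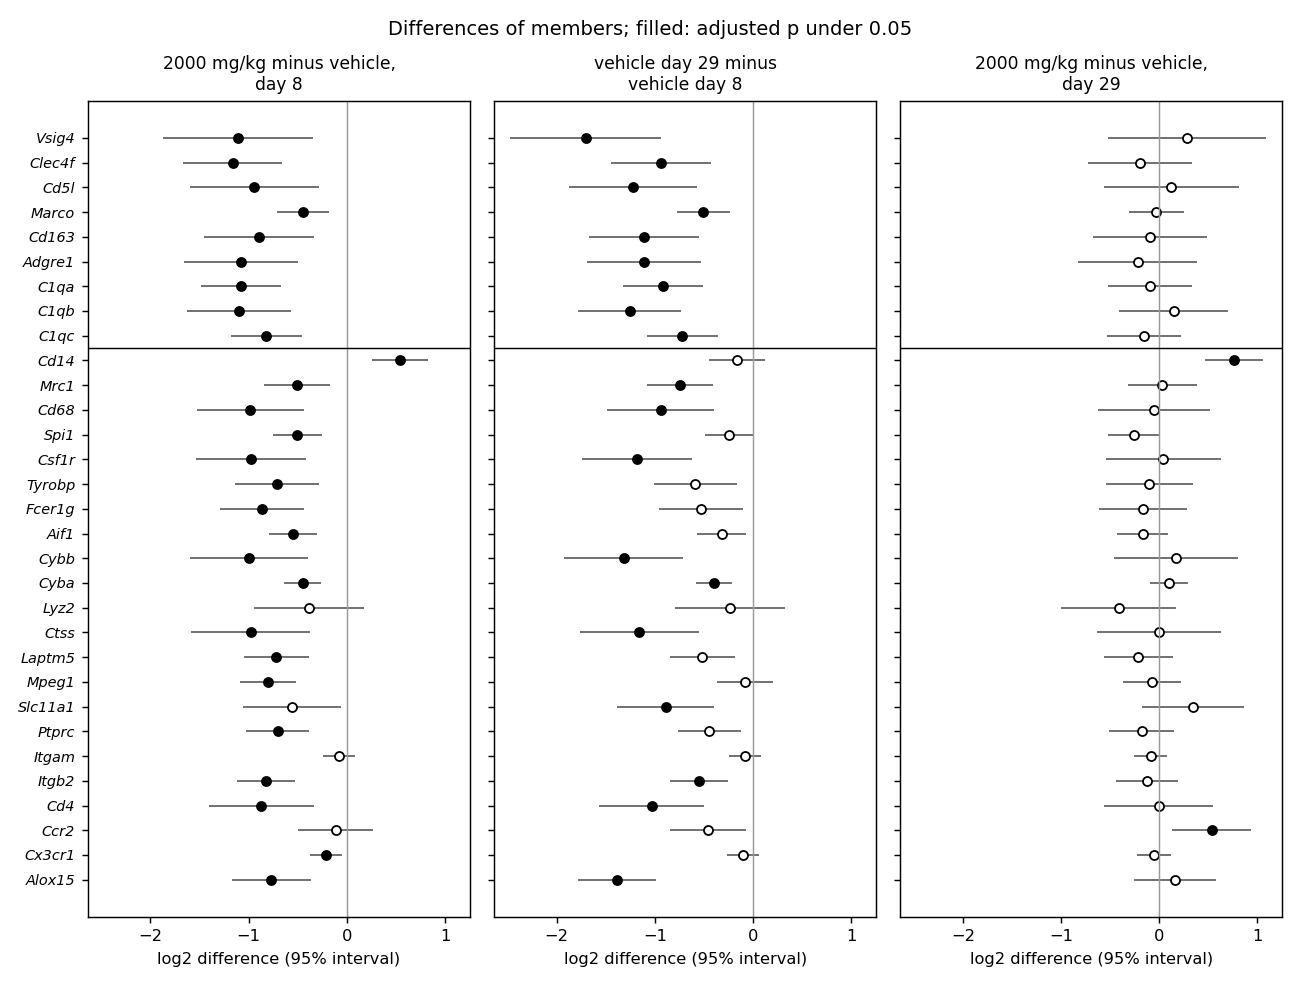
Log2 differences of the 31 genes with 95% intervals for 3 comparisons, filled where the limma adjusted p was under 0.05. PMCol at day 8 and the later vehicle group both lie below the vehicle group of day 8 that they share, while 2000 mg/kg at day 29 scatters around 0 with Cd14 and Ccr2 filled.

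Set on one scale, the vehicle livers of day 8 had the highest mean of the 5 groups in 28 of 31 genes. The scale is relative to the 29 arrays, so it does not tell which group lay off its usual level. For Csf1r, the 5 group means were -0.05 ± 0.29 with 2000 mg/kg and 0.93 ± 0.39 with vehicle at day 8, and at day 29 -0.25 ± 0.62 with vehicle, -0.24 ± 0.48 with 200 mg/kg and -0.21 ± 0.64 with 2000 mg/kg (SD).

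Mpeg1, which encodes a pore-forming protein that macrophages turn on engulfed bacteria, did not follow this order. It had -1.53, -0.69 and -0.36 with PMCol at day 8, against -0.17, 0.08 and 0.23 with vehicle, and fell by 0.80 ± 0.13 without overlap (limma adjusted p = 5.34e-05). Its vehicle groups differed by only -0.09 ± 0.13 (day 29 minus day 8, limma adjusted p = 0.793). At day 29 it had -0.42, 0.04 and 0.13 with vehicle, -0.13, 0.13 and 0.19 with 200 mg/kg, and -0.36, -0.27, -0.01, 0 and 0.08 with 2000 mg/kg. All 6 treated livers of day 8 lay below the medians of the other 4 groups.

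Whether the effect of 2000 mg/kg differed between the days was tested directly. The effect at day 29 minus the effect at day 8 was positive in 29 of 31 genes, with a median of 0.70, but 1 gene passed, Cyba, at 0.55 ± 0.12 (limma adjusted p = 0.0331), where 0.472% of all clusters had a called positive difference. At unadjusted p under 0.05 there were 26. Cyba had -0.17, -0.07 and 0 with PMCol, against 0.20, 0.33 and 0.64 with vehicle, at day 8. At day 29 it had -0.12, -0.11, 0.11, 0.14 and 0.32 with 2000 mg/kg, against -0.21, -0.06 and 0.28 with vehicle. The call of Cyba was lost in 11 of 23 fits without 1 animal (adjusted p up to 0.0708). Without vehicle animal 2 of day 29 the test called 7 genes: C1qa, C1qb, Csf1r, Cybb, Cyba, Mpeg1 and Itgb2.

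**Figure D4:**
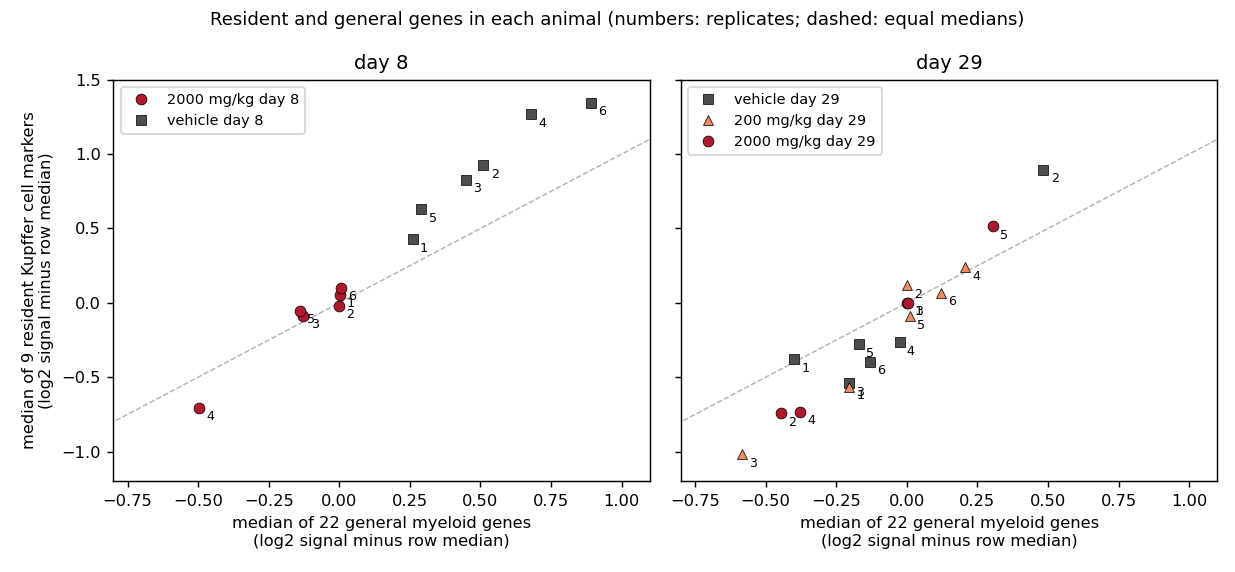
For each liver, the median of the 9 resident markers (vertical axis) against the median of the 22 general myeloid genes (horizontal axis), both in log2 signal minus the row median, at day 8 (left) and day 29 (right). Numbers are replicate numbers and the dashed line marks equal medians. Animals are spread along 1 direction that is steeper than the dashed line, with vehicle animal 6 of day 8 at the top and 200 mg/kg animal 3 of day 29 at the bottom.

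Within each group most of the genes moved as a block from animal to animal. Vehicle animal 2 of day 29 was the highest of its group in 26 of 31 genes, with a median over the genes of 0.61, while the other 5 vehicle livers of that day had medians between -0.39 and -0.11. At 2000 mg/kg and day 29, animal 5 was the highest in 28 genes, and animals 2 and 4 were the lowest in 17 and 12. At 200 mg/kg, animal 3 was the lowest in 24 genes. Among the day 8 livers, PMCol animal 4 was the lowest of its group in 27 genes, and vehicle animal 6 the highest in 24.

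The median of the resident markers swung further than that of the general genes. Single genes of the 2 sets were mixed. In vehicle livers of day 29 the resident Vsig4 and Marco ranged over 2.53 and 0.65, and the general Cybb and Itgam over 2.22 and 0.27. In the treated livers of day 8 the resident median ran from -0.70 to 0.10 and the general median from -0.50 to 0.01, against 0.43 to 1.35 and 0.26 to 0.89 in vehicle livers. The difference between the medians (resident minus general) ran from -0.21 to 0.09 with PMCol, against 0.17 to 0.59 with vehicle, at day 8. At day 29 it ran from -0.33 to 0.41 with vehicle, -0.44 to 0.12 with 200 mg/kg and -0.35 to 0.21 with 2000 mg/kg. Some genes stood outside the block. Lyz2 was highest, at 1.13, in vehicle animal 3 of day 29, whose median over the members was -0.34. Cd14 was lowest of its group, at -0.80, in vehicle animal 2 of day 29, the animal highest in 26 genes. Alox15 was lowest of its group, at -0.56, in 2000 mg/kg animal 5 of day 29, the animal highest in 28 genes.

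Other genes of the pathway were read from lists that are no members. Of 14 measured genes of the Csf1 axis and of macrophage transcription factors, 7 fell at day 8 with PMCol, against 9.32% of all clusters. The median of the 14 was -0.25. The genes that fell included Irf8, the partner of PU.1, by 0.62, Id3, by 0.65, Nr1h3, by 0.34, and the ligand Csf1, by 0.47. The second ligand Il34 (-0.18) and Spic (-0.10), a factor of red-pulp macrophages, did not pass. Between the vehicle groups the median of the 14 was 0.03, and Irf8 differed by 0.09 (day 29 minus day 8, limma adjusted p = 0.642). At day 29, 5 fell and 1 rose with 2000 mg/kg, where 9.55% of all clusters fell and 12.1% rose. Irf8 fell by 0.46, Csf1 by 0.38 and Il34 by 0.30, and Csf1 fell by 0.57 with 200 mg/kg.

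Of 11 Fc receptors and immunoreceptor kinases, 7 fell at day 8 with PMCol, led by the kinase Fgr (-0.77) and the exchange factor Vav1 (-0.63). Between the vehicle groups 5 fell. Over all clusters, 9.32% fell and 9.32% rose at day 8 with PMCol, and 1.77% fell between the vehicle groups. Of 4 further oxidase components and activators, 2 fell at day 8 (Rac2, -0.77, and Vav1, which is counted in both lists). Of 9 genes of antigen presentation by MHC class II, 3 fell, with Cd74, the invariant chain, at -0.79. Of 17 other Kupffer cell and macrophage genes, 9 fell and 1 rose at day 8. Fcna, a ficolin of Kupffer cells, fell by 0.82, the receptor Axl by 0.73 and Tlr4 by 0.50, while Hmox1, which degrades haem, rose by 1.14. Of 19 inflammatory cytokines and chemokines, 5 fell, with Il1b at -0.59.

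Markers of other liver cells moved in part with the same groups. At day 8 with PMCol, 3 of 8 endothelial markers fell, 3 of 8 erythrocyte markers and 5 of 17 T, B and NK cell markers. So did 4 of 11 stellate cell markers and 6 of 9 hepatocyte markers, while 1 of 11 stellate and 1 of 4 bile duct markers rose. Over all clusters 9.32% fell and 9.32% rose. Only 8 of 14 listed endothelial and 4 of 8 listed bile duct markers were measured. The endothelial list shares a gene with the list of Fc receptors and kinases, so the counts of the 2 lists are not independent. The erythrocyte mean per animal ran from -0.09 to 0.11 with PMCol, against 0.33 to 0.81 with vehicle, and the endothelial mean from -0.12 to 0.10, against -0.0027 to 0.45. The lymphocyte mean ran from -0.19 to 0.02 with PMCol, against -0.01 to 0.19 with vehicle. Between vehicle livers of day 29 and day 8, 4 of 8 endothelial and 2 of 8 erythrocyte markers fell, against 1.77% of all clusters. The erythrocyte means were -0.41 to 0.49 at day 29 against 0.33 to 0.81 at day 8. Hepatocyte means moved less, from -0.22 to -0.04 with PMCol, against -0.12 to 0.10 with vehicle, at day 8. The part of these other cells in the changes of the Kupffer cell genes was not tested.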

How the data were processed

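Affymetrix arrays read the liver RNA of 29 rats, 1 array per animal. The authors deposited a table of log2 values for 27342 transcript clusters, each centred on a median of 0 over the arrays; the base of the log is read from the range of the values, and PLIER and MAS5 appear in the submitters' processing notes, with neither version nor role. How arrays were normalized to each other, and any offset, is not given in the sources used here. An offset would make fold changes of dim genes too small. Scan dates were not used here, and no batch was tested.

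Gene names came from the array's platform annotation, in which 15097 clusters had 1 symbol, 323 had several and 11922 had none. All 31 gene identifiers were found in the RefSeq table (GRCr8), and 0 symbols differed. All genes of the list were described whatever their change; from other lists, up to 4 genes with the smallest p in a comparison and 7 macrophage regulators could be named. The members and lists were chosen with earlier results of these data known.

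Groups were compared with limma 3.58.1 in R 4.3.3: a linear model of 5 groups over 29 animals, empirical Bayes moderation without trend, two-sided tests, and Benjamini-Hochberg adjustment over all clusters, with a threshold of 0.05. Intervals are 95% intervals of that fit. Where nothing says how far animals were handled together, p-values measure the spread between these animals. Tested on data simulated for the 27342 clusters (2000 mg/kg and vehicle, day 8), the fit recovered 94% of changes of 0.5 and 100% of changes of 1 on the log2 scale. The changed clusters were drawn at random, with independent noise at the spread of each cluster. These shares therefore do not carry over to the 31 genes. Slc11a1, for instance, differed by -0.56 with 2000 mg/kg at day 8 and was not called (limma adjusted p = 0.107). The highest correlation between any 2 arrays was 0.725, so no array appeared to be deposited more than once. Alternatives were quantile normalization, centring of arrays, only the animals compared, trend, robust and array-weight settings, a replicate block, a threshold of 0.01, only clusters with 1 symbol, leaving out animals and, added after seeing the data, clusters whose rounding shows stored values of 8 or more. Plots used matplotlib 3.10.9.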

Additional observations from a re-analysis of the deposited data

Results flagged for a closer look

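Single livers stood apart from their group in 26 of the 155 sets of a gene and a group, by the gap of the highest or lowest animal to its neighbour relative to the range of the group; chance marks about 1 in 20 sets, and the genes of 1 animal are not independent. Vehicle animal 2 of day 29 was far above the other vehicle livers in 13 genes: Vsig4 (1.08), Clec4f (0.89), Cd5l (1.14), Cd163 (0.89), Adgre1 (1.02), C1qa (0.93), C1qb (0.82), C1qc (0.61), Mrc1 (0.43), Csf1r (0.99), Ctss (0.99), Ptprc (0.62) and Cd4 (0.76), all as log2 signal minus the row median. PMCol animal 4 of day 8 was far below the other treated livers in 7 genes: Clec4f (-0.91), Cd163 (-0.56), C1qa (-0.81), C1qc (-0.72), Cd68 (-0.82), Slc11a1 (-0.91) and Ptprc (-0.67). The 200 mg/kg animal 3 of day 29 was far below its group in Clec4f (-1.02), Fcer1g (-1.10) and Ptprc (-0.90). Vehicle animal 6 of day 8 was far above its group in Itgam (0.45) and Ccr2 (0.78), and vehicle animal 1 of day 8 far below it in Spi1 (-0.014).

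The effect of 2000 mg/kg on Cyba differed between the days in the direct test, by 0.55 on the log2 scale (day 29 minus day 8, limma adjusted p = 0.0331).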

How the results depend on the processing

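The 31 genes were refitted under each alternative, and 0 gene-level directions of a called value reversed; over the settings other than those that left out 1 animal, 1779 values kept their side of the threshold, 16 gained a call and 51 lost one. For 2000 mg/kg against vehicle at day 8, 27 genes were called, against 17 at a threshold of 0.01 and 8 among clusters with stored values of 8 or more, which hold only 8 of the genes, and between 22 and 27 without 1 animal. For 2000 mg/kg at day 29, 2 were called, against 1 with quantile normalization, only the animals compared, array weights, the stricter threshold, clusters with stored values of 8 or more, or without both vehicle animals 1 and 2, and between 1 and 2 without 1 animal. For 200 mg/kg the count was 1 in every fit without 1 animal, and between the doses 0. Between the vehicle groups 19 were called, against 3 with only the animals compared, 1 at the stricter threshold and 6 among clusters with stored values of 8 or more, and between 8 and 24 without 1 animal. For the difference of effects between the days 1 was called, against 5 with array weights, 0 at the stricter threshold, 4 without both vehicle animals 1 and 2 of day 29, and between 0 and 7 without 1 animal. The causes of these shifts were not tested beyond the smaller number of animals or clusters in some fits. With the replicate number as a block the counts were 27, 2, 1, 0, 18 and 2 in the same order of comparisons, and Mpeg1 joined Cyba in the last. Same-numbered animals did not deviate together in all pairs (correlations from -0.278 to 0.295). Differently numbered animals were not compared with these, so the check cannot exclude a pairing. Over all clusters, calls at day 8 were 5096, against 3244 at 0.01 and 3011 with stored values of 8 or more, and for 2000 mg/kg at day 29 5910, against 3754 and 3290. They were 761 for 200 mg/kg, against 340 with only the animals compared and 277 at 0.01, and 2704 between the doses, against 1364 at 0.01. Between the vehicle groups they were 746, against 136 with only the animals compared, 1773 with array weights, 77 at 0.01 and 1374 without both vehicle animals, and for the difference of effects 212, against 102 with quantile normalization, 673 with array weights, 28 at 0.01 and 620 without both vehicle animals. Leaving out 1 animal gave 436 to 1102 calls for 200 mg/kg, 1755 to 2813 between the doses, 254 to 2141 between the vehicle groups and 76 to 563 for the difference of effects. A mean over several clusters of a gene was not run, because each gene had 1 cluster. Signal over background could not be judged from centred values.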

Other observations

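Of 11 alternative activation genes, 2 fell and 1 rose with 2000 mg/kg against vehicle at day 29, near the shares over all clusters, of which 9.55% fell and 12.1% rose. Fn1, fibronectin, fell by 0.79, Il1rn, the antagonist of interleukin-1, fell by 1.33, and the nuclear receptor Pparg rose by 0.39 (limma adjusted p = 4.58e-09, 4.49e-05 and 0.024). Fn1 fell by 1.01 at day 8 with the same dose (limma adjusted p = 1.9e-11). Of 11 stellate cell markers, 9 fell and 0 rose at day 29 with 2000 mg/kg, among them Lrat, which stores retinol, by 1.40 and the receptor Pdgfrb by 0.97. The stellate mean per animal ran from 0.03 to 0.50 with vehicle, -0.06 to 0.12 with 200 mg/kg and -0.42 to -0.24 with 2000 mg/kg.

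Among genes that macrophages share with other liver cells, Zeb2, a transcription factor of Kupffer and stellate cells, fell by 0.44 with 200 mg/kg and by 0.98 with 2000 mg/kg at day 29, and the doses differed by -0.54 (limma adjusted p = 1.66e-05). The haem oxygenase Hmox1 rose by 1.29 and the iron exporter Slc40a1 by 0.58 with 2000 mg/kg at day 29. Of 13 lysosomal enzymes, 2 rose and 2 fell in that comparison, again near the shares over all clusters, with the protease Ctsd up by 0.49 and Ctsh down, at -0.38.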
